A study of Danio rerio with 14 samples.

Results

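The long arm of zebrafish chromosome 4 was examined for 2 marks of active chromatin, H3K27ac and H3K4me3, at the onset of zygotic transcription. Its members were all peaks of the 7 deposited peak lists that start at or beyond 30 Mb on chromosome 4. They numbered 60530 of the 681659 peaks on chromosomes 1 to 25. They were set against the 15317 peaks that start below 27 Mb on the same chromosome, called the short arm here, and against the 603344 peaks of the other 24 chromosomes. The 2468 peaks between 27 and 30 Mb were left out of both arms. The arms are defined by coordinates in danRer11 alone, because a peak list shows no centromere.

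The lists came from whole embryos collected 4.3 hours post fertilization (hpf), when wild-type embryos are at dome stage. MZsox19b embryos carried a small TALEN-made deletion in sox19b with a premature stop and lacked the maternal and the zygotic product. MZspg embryos lacked functional Pou5f3, maternal and zygotic, through a null allele of the gene. The wild type (WT), of the AB/TL strain, was the control. The study names no background strain for the mutant lines. H3K27ac was profiled in 2 MZsox19b replicates, in MZspg and in WT, and H3K4me3 once in each genotype. Embryos of many parents were pooled for each library, nuclei of different days were combined, and the WT and MZspg H3K27ac libraries each joined material of 2 immunoprecipitations. Mutants were matched to WT by age, and MZsox19b embryos developed with a delay. Every group had a single library except the MZsox19b H3K27ac pair, which the study describes as biological replicates. No test between genotypes was run, since the spread within a group rests on that pair alone.

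Acetylation of histone H3 at lysine 27 is found at enhancers and promoters in use, while trimethylation at lysine 4 is found mainly at promoters. Sox19b and Pou5f3 are transcription factors that the mother supplies to the egg and that open chromatin at this stage. The long arm of chromosome 4 is known as a mostly heterochromatic and late-replicating part of the zebrafish genome. It is rich in repeats and holds large families of near-identical zinc finger and NLR immune receptor genes, together with arrays of 5S ribosomal RNA and small nuclear RNA genes. Many of its zinc finger genes are known to be transcribed from about the time of zygotic genome activation. Reads from such repeated DNA can align in several places. The study states for each library how many reads aligned more than once. Their share was lower in the first MZsox19b H3K27ac replicate than in the second. The sources used here do not say whether reads with several alignments were kept, and their part in the values below was not tested. No genome of the build of the files was used here, so peaks are given by position and not by gene.

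The lists differed in length. On chromosomes 1 to 25 the H3K27ac lists held 122893 to 173020 peaks and the H3K4me3 lists 22502 to 53634, the shortest list of each mark being that of MZspg. The lists come without the reads behind each peak. Read totals per library are stated by the study, with the lowest among the ChIP libraries for MZspg H3K4me3, and were not used here to adjust the lists. Intervals given with shares are 95% Wilson intervals of counting error alone, and neighbouring peaks are not independent of each other. Column 7 of the lists, the fold enrichment of the ChIP signal over local background at the summit, ranks peaks within a list and cannot be compared between lists.

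Both marks were more densely placed on the long arm than on the rest of the genome in all 7 lists. The arm measured 48.1 Mb, or 3.58% of the 1345 Mb covered by chromosomes 1 to 25, with each length taken from the highest peak end in any list. It held 12693 and 14173 H3K27ac peaks in the MZsox19b replicates, 8995 in MZspg and 12491 in WT. This was 264 and 295 peaks per Mb in MZsox19b, 187 in MZspg and 259.8 in WT. The other chromosomes held 98.3, 121, 87.4 and 87.1 peaks per Mb in the same lists, and the short arm 130.3, 167, 102 and 93.6. The long arm of MZsox19b thus exceeded the other chromosomes by 2.56 ± 0.18 times (SD, n = 2), that of MZspg by 2.14 times and that of WT by 2.98 times.

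For H3K4me3, the promoter mark, the long arm held 3200 peaks in MZsox19b, 2019 in MZspg and 6959 in WT. These were 66.5, 42.0 and 145 peaks per Mb, against 30.7, 14.6 and 29.6 on the short arm and 30.3, 15.8 and 36.1 on the other chromosomes. The WT list had the steepest contrast, at 4.01 times the other chromosomes, against 2.2 times in MZsox19b and 2.66 times in MZspg. As a share of the list, the long arm took 13.0% of the WT H3K4me3 peaks (interval 12.7 to 13.3). No other chromosome reached the density of the long arm in any list. The long arm stood 1.64 times above the densest of them for MZsox19b H3K4me3, the smallest margin, and 3.31 times for WT H3K4me3, the largest. These are averages over whole chromosomes, and single 1 Mb bins elsewhere could be as dense. The chromosome 8 bin that starts at 34 Mb held 356 WT H3K4me3 peaks, against at most 258 on the arm. Of the 48 densest bins of a list, from 16 (MZspg H3K4me3) to 38 (WT H3K27ac) lay on the arm.

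**Figure D1:**
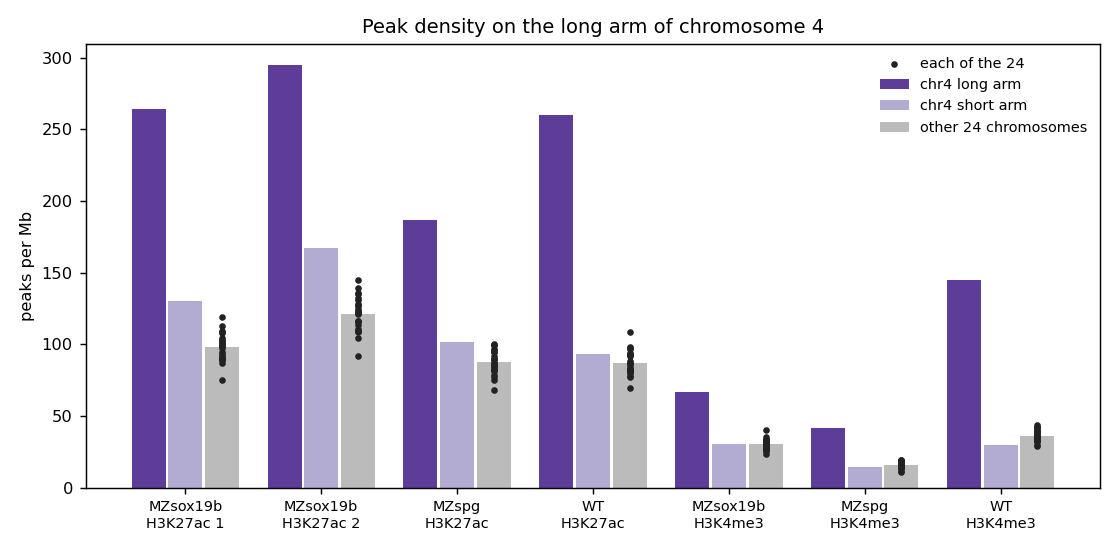
Peaks per Mb in each of the 7 lists on the long arm (dark), the short arm (light) and the other 24 chromosomes (grey, with a point for each chromosome). The long arm bar stands above every point in all 7 lists, from 1.64 times the densest other chromosome in MZsox19b H3K4me3 to 3.31 times in WT H3K4me3.

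The order of the genotypes depended on list length. With each H3K27ac list reduced to its 122893 highest peaks, the length of the MZspg list, the long arm held 11917 and 11842 peaks in MZsox19b, 8995 in MZspg and 12064 in WT. At equal length MZspg thus stayed below the other lists, by far more than the replicates differed from each other. With each H3K4me3 list reduced to its 22502 highest peaks, the long arm held 1269 peaks in MZsox19b, 2019 in MZspg and 1994 in WT. The excess of WT over MZspg in H3K4me3 was therefore found among peaks ranked below that length.

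WT counts rose at the boundary used, but some bins before it were already high. The short arm medians per bin were 87 for WT H3K27ac and 23 for WT H3K4me3. In the 1 Mb bins that start at 26, 27, 28 and 29 Mb, the WT H3K27ac list held 173, 95, 229 and 172 peaks, and in the bin that starts at 30 Mb it held 349. The WT H3K4me3 list held 116, 19, 115 and 68 in the same bins, and 187 in the bin that starts at 30 Mb. The bin that starts at 26 Mb counts as short arm here. The first MZspg H3K27ac peak inside the boundary lay at chr4:30011179-30011658 (4.06-fold enrichment), and the last one outside at chr4:29966439-29967548 (5.66-fold). In WT, the first inside lay at chr4:30011338-30011565 (2.60-fold) and the last outside at chr4:29982535-29982696 (2.25-fold). The first peak started between 30011155 and 30011338 bp in 6 of the 7 lists, and at 30074311 bp for MZsox19b H3K4me3.

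Within the long arm the density was uneven. Over its 48 full bins, H3K27ac counts had a median of 277 (69 to 378) and 296.5 (92 to 421) in the MZsox19b replicates, 161.5 (48 to 527) in MZspg and 266 (64 to 415) in WT. The 3 WT bins with the most H3K27ac peaks started at 42, 32 and 61 Mb, with 415, 412 and 350 peaks. The 3 with the fewest started at 77, 75 and 66 Mb, with 64, 101 and 111. H3K4me3 in WT was highest in the bins that start at 42, 55 and 44 Mb, with 258, 223 and 221 peaks, and lowest at 75, 74 and 77 Mb, with 42, 51 and 52.

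Peaks were absent from 2 long stretches in every list. No list had a peak between 45633882 and 46435607 bp on chromosome 4, a stretch of 802 kb, nor between 66031750 and 66449531 bp, a stretch of 418 kb. The next longest such stretch measured 146 kb. Whether the assembly has sequence there to which reads can align was not tested. Elsewhere the peaks stood close together. The median gap between neighbouring H3K27ac peaks of the long arm was 944 and 834 bp in MZsox19b, 1197 bp in MZspg and 1164 bp in WT, against 1931, 1393, 2182 and 2619 bp on the other chromosomes. For H3K4me3 it was 5870 bp in MZsox19b, 8170 bp in MZspg and 2451 bp in WT, against 14312, 27191 and 10609 bp.

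**Figure D2:**
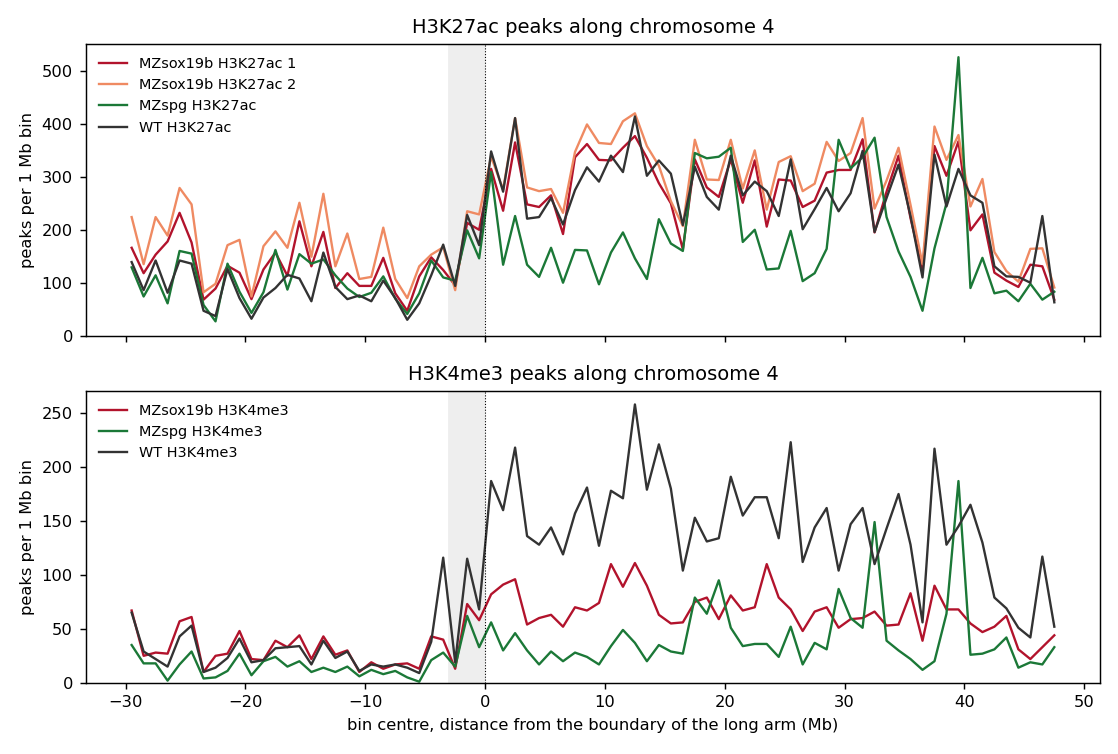
Peaks per 1 Mb bin along chromosome 4 for H3K27ac (top, 4 lists) and H3K4me3 (bottom, 3 lists), by distance of the bin centre from the boundary of the long arm, with the interval left out between the arms shaded. To the right of the boundary the WT H3K27ac line has a median of 266 peaks per bin, against 87 in the 27 bins of the short arm, and the MZspg line lies below WT in 38 of the 48 bins and above it in 10.

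Whether peaks were wider or narrower on the long arm than on the other chromosomes depended on the list. H3K27ac peaks of the long arm had median widths of 391 and 415 bp in MZsox19b, 254 bp in MZspg and 250.0 bp in WT, against 360.0, 356, 264 and 247 bp on the other chromosomes. H3K4me3 peaks of the long arm were narrower than elsewhere in every genotype. Their medians were 332 bp in MZsox19b, 350.0 bp in MZspg and 260.0 bp in WT, against 525, 548 and 321 bp on the other chromosomes and 655, 659 and 442 bp on the short arm. With peaks of −log10 q below 5 removed, H3K27ac peaks too were narrower on the long arm in all 4 lists, at 533 and 570.0 bp in MZsox19b, 376 bp in MZspg and 330.0 bp in WT, against 700.0, 689, 517 and 452 bp. Peaks covered 16.7% and 19.5% of the long arm for H3K27ac in MZsox19b, 7.55% in MZspg and 9.0% in WT, against 6.18%, 7.58%, 4.10% and 3.56% of the other chromosomes.

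The place of the long arm peaks in the ranking by fold enrichment differed between lists. Among the 10000 highest peaks of each list, called strong here, 1193 and 1465 lay on the long arm in the MZsox19b H3K27ac lists, 531 in MZspg and 688 in WT. Strong peaks made up 7.08% and 5.78% of the MZsox19b lists, 8.14% of the MZspg list and 7.95% of the WT list. For H3K4me3 the long arm held 571 strong peaks in MZsox19b, 464 in MZspg and 591 in WT, from lists of which strong peaks made up 23.5%, 44.4% and 18.6%. Every one of these counts lay above the share of the length, by 3.34 and 4.10 times in MZsox19b H3K27ac, 1.49 times in MZspg and 1.92 times in WT, and by 1.60, 1.3 and 1.65 times in the H3K4me3 lists. Of the long arm peaks themselves, 9.40% and 10.3% were strong in MZsox19b H3K27ac, above the shares of the whole lists. In MZspg and WT H3K27ac 5.90% and 5.51% were strong, and in the H3K4me3 lists 17.8%, 23.0% and 8.49%. These 5 values were all below the shares of the whole lists. Among the 5000 highest peaks, the MZspg H3K4me3 list alone fell below the share of the length, at 0.83 times.

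At the very top the lists parted. Of the 1000 highest H3K27ac peaks, which were 0.708%, 0.578%, 0.814% and 0.795% of the lists, 102 and 151 lay on the long arm in MZsox19b, 38 in MZspg and 27 in WT. In MZsox19b this was 10.2% (8.47 to 12.2) and 15.1% (13.0 to 17.5), against 2.70% (1.86 to 3.90) in WT. Of the 1000 highest H3K4me3 peaks, which were 2.35%, 4.44% and 1.86% of the lists, the long arm held 16 in MZsox19b, 6 in MZspg and 7 in WT. All of these were below the share of the length. Each ranking was then cut into 10 equal steps. The long arm share of the MZsox19b H3K27ac lists was 12.8% and 15.6% in the highest step and 4.87% and 4.39% in the lowest. In WT H3K27ac it was 7.76% in the highest step, 13.7% at its maximum in step 3 and 9.90% in the lowest. In MZspg H3K27ac it was 5.60% in the highest step, 8.71% at its maximum in step 4 and 7.54% in the lowest. A fall from the highest to the lowest step was thus seen in the MZsox19b H3K27ac lists alone. The H3K4me3 lists rose, with 4.32% in the highest step and 14.8% in the lowest in MZsox19b, 1.47% and 10.1% in MZspg, and 3.82% and 16.4% in WT. Long arm H3K4me3 peaks were therefore concentrated among the weaker peaks of each list.

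**Figure D3:**
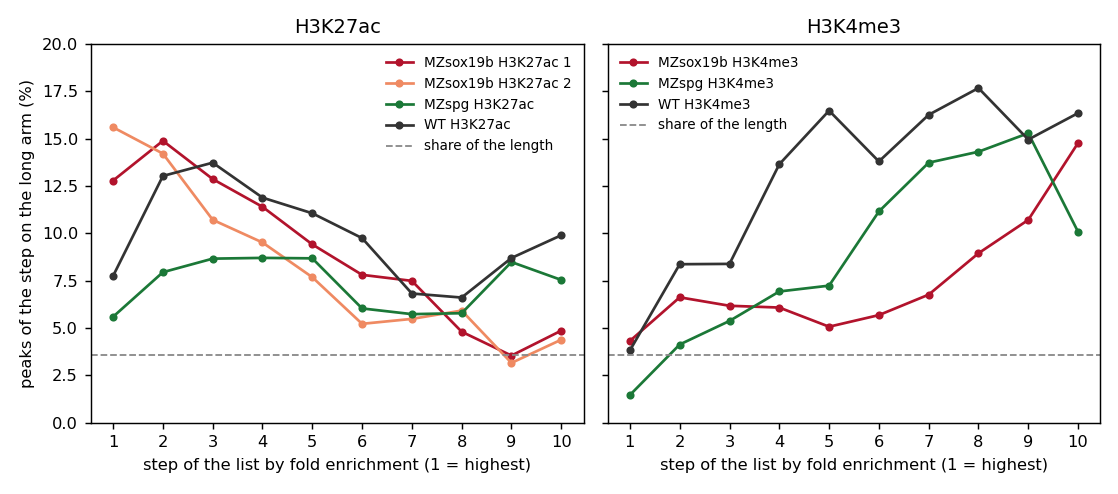
Share of peaks on the long arm in each of 10 equal steps of a list, from the highest by fold enrichment (1) to the lowest (10), for H3K27ac (left) and H3K4me3 (right), with the share of the length as a dashed line. MZsox19b H3K27ac starts at 12.8% and 15.6% and ends at 4.87% and 4.39%, whereas WT H3K4me3 starts at 3.82% and ends at 16.4%.

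The site that led the arm in 3 of the 7 lists had a peak in every list. The peak at chr4:43388285-43394696 ranked 3 in MZsox19b replicate 1, with 83.2-fold enrichment, and the overlapping peaks ranked 17 in replicate 2 (61.1-fold), 2289 in MZspg (14.7-fold) and 9 in WT (35.3-fold). H3K4me3 at this site held rank 1 of all peaks in MZsox19b (310-fold), rank 3744 in MZspg (23.6-fold) and rank 8 in WT (149.8-fold). Another site, chr4:69800534-69802869, ranked 7 and 4 in the MZsox19b replicates, 378 in MZspg and 1362 in WT. One more, chr4:51840902-51843913, ranked 8 and 41 in MZsox19b and 4058 in WT, with no peak of either mark in MZspg. Both of these last sites ranked far lower in WT. They were picked as leading peaks of the MZsox19b lists, so lower ranks elsewhere go with that choice and are a description.

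Other sites were picked as the strongest of the arm in MZspg or the widest in WT. Their lower ranks in other lists go with that choice and are a description. The highest long arm peak of MZspg, chr4:41124220-41128156, ranked 6 there (49.2-fold), 1263 and 567 in MZsox19b and 6065 in WT. H3K4me3 at this site ranked 350 in MZspg, 2745 in MZsox19b and 7708 in WT. The site chr4:47602233-47607954 ranked 43 for H3K27ac in MZspg, 2596 and 1921 in MZsox19b and 6975 in WT. The widest H3K27ac peak of WT on the arm, chr4:45266685-45277038, spanned 10354 bp, ranked 1688 in WT and overlapped a peak in every other list.

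The next comparison asked how often H3K27ac and H3K4me3 coincided. Of the long arm H3K27ac peaks, an H3K4me3 peak of the same genotype overlapped 17.9% and 16.7% in MZsox19b, 18.8% in MZspg and 44.3% (43.4 to 45.1) in WT. The shares were 19.0%, 15.9%, 13.4% and 23.2% on the short arm, and 22.7%, 19.5%, 16% and 29.5% on the other chromosomes. Over chromosomes 1 to 25 they were 22.2%, 19.2%, 16.2% and 30.9%. The WT excess of 14.7 percentage points over the other chromosomes did not hold at equal list length. With the H3K4me3 lists reduced to 22502 peaks and the H3K27ac lists to 122893, the long arm share was 9.81% and 9.82% in MZsox19b, 18.8% in MZspg and 14.9% in WT, against 18.4%, 18.2%, 16% and 16.3% on the other chromosomes. The MZsox19b deficit kept its direction and the WT excess turned into a deficit. These lengths are those of the MZspg lists, so the MZspg values could not change. With an overlap of at least 50% of the peak, the MZspg excess was 0.43 percentage points, in place of 2.76.

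In the other direction, most H3K4me3 peaks of the long arm coincided with H3K27ac. The shares were 76.9% and 79.7% with the 2 MZsox19b H3K27ac lists, 85.0% in MZspg and 77.9% in WT, against 69.8%, 70.8%, 86.0% and 67.7% on the other chromosomes. Over chromosomes 1 to 25 they were 70.5%, 71.5%, 86.0% and 69.0%. With lists of equal length, the excess over the other chromosomes was 3.95 percentage points in MZsox19b and 1.92 in WT, in place of 8.04 and 10.3. The MZspg difference of −0.99 percentage points turned to 5.50 once the other chromosomes were weighted to the same rank steps as the long arm peaks. H3K4me3 without H3K27ac on the arm numbered 738 and 649 peaks in MZsox19b, depending on the H3K27ac replicate, 302 in MZspg and 1535 in WT.

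The MZsox19b replicates gave the only measure of how far 2 lists of one genotype differ. Of the long arm peaks of replicate 1, 1391 had no counterpart in replicate 2, or 11% (10.4 to 11.5), against 20.8% on the short arm, 24% on the other chromosomes and 22.7% on chromosomes 1 to 25. Of those of replicate 2, 3340 had none in replicate 1, or 23.6% (22.9 to 24.3), against 41.4%, 39.8% and 38.5%. Long arm peaks therefore recurred more often than others. Much of this went with rank: 89.0% and 76.4% were found again on the long arm, against 84.8% and 74.4% on the other chromosomes once these were weighted to the rank steps of the long arm peaks. The 2 lists also covered more of the long arm, 16.7% and 19.5%, than of the other chromosomes, 6.18% and 7.58%. The part of coverage in these shares was not tested.

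The genotypes were then compared by asking which WT H3K27ac peaks had a counterpart in each mutant. Long arm peaks were kept more often than others in MZsox19b and less often in MZspg. MZsox19b lists lacked 3109 and 2460 of the 12491 WT long arm peaks, and the MZspg list lacked 7434. The shares missing were 24.9% and 19.7% from MZsox19b and 59.5% (58.7 to 60.4) from MZspg. On the short arm they were 36.2%, 30.1% and 47.6%, on the other chromosomes 47.5%, 40.8% and 53.2%, and on chromosomes 1 to 25 45.0%, 38.4% and 53.7%. The share found was thus 22.6 and 21.1 percentage points above that of the other chromosomes in the MZsox19b replicates, and 6.30 points below it in MZspg. With the other chromosomes weighted to the rank steps of the long arm peaks, the deficit in MZspg was 8.22 points. The lists searched covered unequal parts of the arm, 16.7% and 19.5% in MZsox19b and 7.55% in MZspg. They covered less of the other chromosomes, at 6.18%, 7.58% and 4.10%, so an overlap by position alone is likelier on the arm. The part of this in the shares was not tested.

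The patterns of loss differed between the arm and the rest of the genome. A counterpart in both MZsox19b replicates but none in MZspg was found for 4763 WT long arm peaks, or 38.1% (37.3 to 39.0), against 17.0% on the short arm, 15.8% on the other chromosomes and 18.0% on chromosomes 1 to 25. A counterpart in all 3 mutant lists was found for 34.4%, against 43.3%, 33.0% and 33.3%. None in any mutant list was found for 13.7%, against 22.4%, 28.7% and 27%. The reverse pattern, with a counterpart in MZspg and in neither MZsox19b replicate, held for 3.38%, against 4.23%, 8.33% and 7.77%. These patterns share the WT list, so a weak WT peak can be missing from several lists at once.

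**Figure D4:**
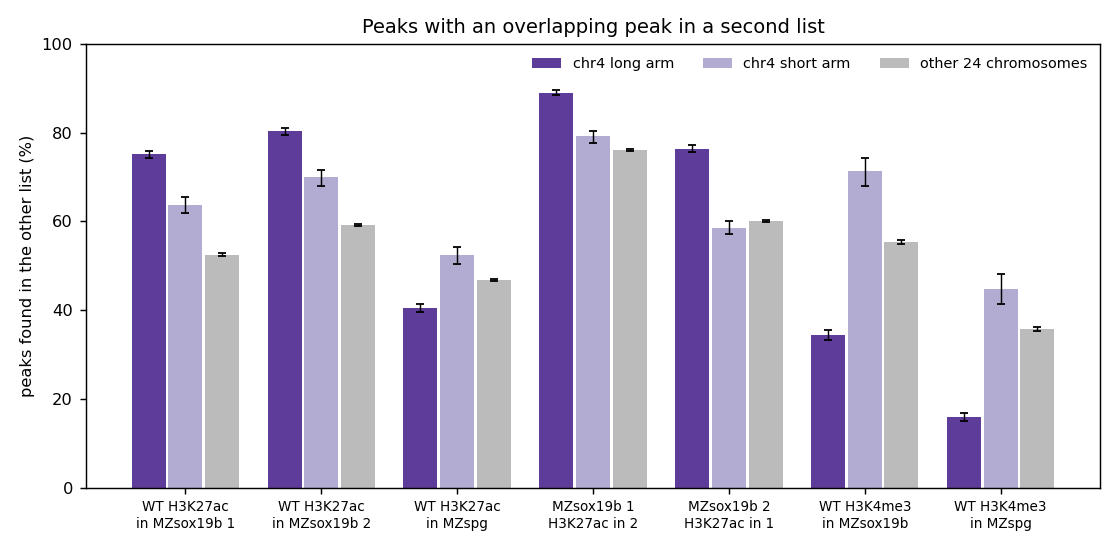
Share of peaks with an overlapping peak in a second list, for the long arm (dark), the short arm (light) and the other 24 chromosomes (grey), with 95% Wilson intervals for counting error. The long arm bars are the highest of each set for WT H3K27ac in MZsox19b (75.1% and 80.3%) and between the MZsox19b replicates, and the lowest for WT H3K27ac in MZspg (40.5%) and for WT H3K4me3 in both mutants (34.4% and 15.9%).

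Peaks were missing from MZspg more often on the long arm than elsewhere in each rank class, by the least in the lowest class. Of the 688 strong WT peaks of the long arm, 128 (18.6%) were missing from MZspg, against 7.77% on the short arm and 10.3% on the other chromosomes. Of the 5089 WT long arm peaks of the next rank class, which ends at rank 50000, 52.1% were missing from MZspg, against 29.2% on the short arm and 37.8% on the other chromosomes. Beyond it the shares were 69.3%, 62.1% and 66.8%. From both MZsox19b replicates, 8 strong long arm peaks (1.16%) were missing, against 0.971% on the short arm and 3.65% on the other chromosomes. Over all ranks, 17.1% of the WT long arm peaks were missing from both replicates, against 26.6% on the short arm, 37.0% on the other chromosomes and 34.8% on chromosomes 1 to 25. Of the strong WT peaks on the long arm, 85.5% and 86.0% were also strong in the MZsox19b replicates and 36.0% in MZspg, against 69.9%, 65.7% and 66.3% on the other chromosomes.

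In each region, WT H3K27ac peaks that overlapped WT H3K4me3 were missing from MZspg less often than those that did not. Among WT long arm H3K27ac peaks that overlapped WT H3K4me3, 2989 of 5529 (54.1%) were missing from MZspg, against 20.5% on the short arm and 32.1% on the other chromosomes. Among those without H3K4me3, the shares were 63.8%, 55.8% and 62.1%, so that the gap between the arm and the rest was larger in peaks with both marks. Where H3K27ac of such a doubly marked peak was kept in MZspg, H3K4me3 was also present in MZspg at 33.5% of the long arm peaks, against 68.5% on the short arm and 60.7% on the other chromosomes. Where it was kept in both MZsox19b replicates, MZsox19b H3K4me3 was present at 42.9%, against 89.6% and 79.7%. Peaks with both marks were not matched for rank between regions, and long arm H3K4me3 was concentrated among the weaker peaks. The part of rank in these shares was not tested.

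The highest WT peaks without an overlapping MZspg peak were picked for that absence, so their values are a description. At chr4:42791128-42792524, H3K27ac ranked 707 and 635 in MZsox19b, had no peak in MZspg and ranked 778 in WT (16.8-fold). At chr4:52738613-52739119, H3K27ac ranked 589 and 11 in the MZsox19b replicates and 1477 in WT. No MZspg peak overlapped the WT peak there, but one of 2.90-fold overlapped the wider peak of MZsox19b replicate 2, chr4:52737164-52739179. The H3K4me3 peak at chr4:56622808-56624167 stood at 122-fold in MZsox19b and 58.2-fold in WT, with 13.4-fold H3K27ac in WT, and neither mark had a peak there in MZspg. At chr4:41297517-41297795, H3K4me3 stood at 174-fold in MZsox19b and 89.0-fold in WT, again with none in MZspg. WT peaks missing from both MZsox19b replicates were weaker. The highest of them, chr4:77223365-77223610, had a peak of rank 9611 in MZspg and ranked 5042 in WT (8.15-fold).

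Mutant lists also held long arm peaks that WT lacked. Of the 8995 MZspg H3K27ac peaks, 4061 (45.1%) had no WT counterpart, against 54.7% on the short arm, 55.8% on the other chromosomes and 55.0% on chromosomes 1 to 25. Among strong MZspg peaks the order was the opposite, with 107 of 531 long arm peaks (20.2%) missing from WT, against 4.29% on the short arm and 5.07% on the other chromosomes. Most of these 107 had a counterpart in an MZsox19b list, since 25 were missing from WT and from both MZsox19b replicates. The matching share elsewhere is not given here. The MZsox19b lists covered 16.7% and 19.5% of the arm, against 6.18% and 7.58% of the other chromosomes. A counterpart by position alone is thus likelier on the arm, and the part of this was not tested. Over all ranks, 2245 long arm peaks (25%) were found in MZspg alone, against 31.1% on chromosomes 1 to 25. The highest peak of MZspg without a WT counterpart, chr4:69955305-69958530, ranked 1332 (18.2-fold) and overlapped peaks of 4.59-fold and 7.31-fold in MZsox19b.

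The 3 highest MZspg H3K27ac peaks of the arm without a WT counterpart, picked for that absence, each overlapped an MZspg H3K4me3 peak. The share of all such peaks that did so is not given here. At chr4:69955305-69958530 and chr4:70003117-70004280, MZspg H3K4me3 stood at 4.79-fold and 3.12-fold, with no WT peak of either mark. At chr4:33330897-33332341, H3K27ac stood at 16.8-fold and H3K4me3 at 31.8-fold in MZspg, H3K27ac stood at 3.84-fold and 2.10-fold in MZsox19b, and WT had neither mark. That site was also picked from the MZspg H3K4me3 list for its absence from WT, and chr4:59357418-59358403 from that list alone. At the latter, the MZspg values were 11.6-fold for H3K27ac and 28.1-fold for H3K4me3, with no peak of either mark in any other genotype. MZsox19b peaks present in both replicates and absent from WT reached rank 4791 at chr4:42213513-42217258, with 13.6-fold and 9.67-fold enrichment. On the arm they numbered 4245 of the 12693 peaks of replicate 1 (33.4%), against 39.2% on chromosomes 1 to 25.

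H3K4me3 of the long arm was shared less between genotypes than H3K4me3 elsewhere. Of the 6959 WT peaks, 4566 (65.6%) were missing from MZsox19b and 5854 (84.1%) from MZspg. The shares were 28.7% and 55.2% on the short arm, 44.6% and 64.3% on the other chromosomes, and 47.0% and 66.7% on chromosomes 1 to 25. The size of this difference depended on how rank was handled. Among the 22502 highest peaks of each list it was larger. The share of WT peaks found was then 57.2% on the long arm against 80.2% on the other chromosomes for MZsox19b, and 42.5% against 68.3% for MZspg. Rank weighting of the full lists made it smaller. With the other chromosomes weighted to the same rank steps, the share found was 34.4% on the long arm against 44.9% elsewhere for MZsox19b, and 15.9% against 23.6% for MZspg. Sharing of the MZspg H3K4me3 list was also lower in the other direction, with 916 of its 2019 long arm peaks (45.4%) missing from WT. The shares were 8.14% on the short arm, 17.8% on the other chromosomes and 20.1% on chromosomes 1 to 25. The share found in WT was thus 27.5 percentage points below that of the other chromosomes, and 16.2 points below it without the 10 bins described next, in which MZspg had more H3K27ac peaks than WT. It was 39.7% in those bins and 65.9% in the other 38. Those bins were picked by their H3K27ac counts, with MZspg above WT. On the arm 85.0% of MZspg H3K4me3 peaks overlapped MZspg H3K27ac, so these values go with that choice and are a description. In MZspg, 870 long arm H3K4me3 peaks (43.1%) were missing from both WT and MZsox19b, against 17.6% on chromosomes 1 to 25. The MZsox19b list differed from this, since 27.7% of its 3200 long arm peaks were missing from WT, against 36.2% on the other chromosomes and 35.4% on chromosomes 1 to 25.

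The loss in MZspg was not spread evenly along the arm. Counts per bin were set side by side as log2 ratios with 1 added to each count. For H3K27ac, MZspg over WT had a median of −0.75 across the 48 bins (SD 0.64, range −1.70 to 0.93), against −0.01 (SD 0.47) across 1255 bins of the other chromosomes with at least 20 WT peaks. MZsox19b over WT had medians of 0.07 and 0.22 on the long arm, and replicate 2 over replicate 1 had a median of 0.15 with an SD of 0.09. MZsox19b over WT had SDs of 0.24 and 0.22 on the long arm. Its medians on the other chromosomes were 0.19 and 0.50, with SDs of 0.43 and 0.43. MZsox19b over WT was thus also lower on the arm than elsewhere, and off the arm its spread was near that of MZspg. On the other chromosomes the replicate ratio had an SD of 0.16, so the MZspg ratio was more spread than it in both parts. The replicates are of another genotype, and they do not give the spread between libraries of MZspg or WT. For H3K4me3, the medians on the long arm were −1.16 for MZsox19b over WT and −2.19 for MZspg over WT, against −0.20 and −1.12 elsewhere. These ratios use the full lists, which differ in length, and were not taken at equal list length.

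MZspg lay below WT in 38 of the 48 bins and above it in 10. These 10 bins, picked after the counts were seen, started at 47, 48, 49, 50, 59, 60, 62, 68, 69 and 77 Mb, and 4 of them, from 47 to 51 Mb, formed an unbroken run. The bin that starts at 69 Mb held the most, with 527 H3K27ac peaks in MZspg, against 316 in WT, and 187 H3K4me3 peaks in MZspg, against 145 in WT. MZsox19b had 368 and 380 H3K27ac and 68 H3K4me3 peaks there. In the bin that starts at 62 Mb, MZspg had 375 H3K27ac and 149 H3K4me3 peaks, against 197 and 110 in WT. These were the 2 bins of the arm in which MZspg H3K4me3 exceeded WT in the full lists, of 22502 and 53634 peaks. Bins were not compared at equal list length, at which the whole arm held 2019 MZspg and 1994 WT H3K4me3 peaks.

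H3K4me3 varied with H3K27ac over these bins. In the 10 bins, the median log2 ratio of MZspg over WT for H3K4me3 was −0.79 (−1.88 to 0.43), and in the other 38 it was −2.31 (−3.38 to −0.70). WT H3K27ac peaks were found in MZspg at 64.4% in the 10 bins and at 34.5% in the other 38, which is a description since the bins were picked by their MZspg counts. They were found in the MZsox19b replicates at 78.6% and 84.0% in the 10 bins and at 74.3% and 79.4% in the other 38. Without the 10 bins, the share of WT long arm peaks found in MZspg lay 12.3 percentage points below that of the other chromosomes, in place of 6.30. This too goes with the choice of bins, and no bins were left out of the other chromosomes. As a description, Spearman's rho between H3K27ac and H3K4me3 counts over the 48 bins was 0.80 in MZspg and 0.92 in WT, and rho between MZspg and WT was 0.53 for H3K27ac and 0.26 for H3K4me3. The replicates reached 0.97. Over the 1258 bins of the other chromosomes, rho between MZspg and WT was 0.74 for H3K27ac and 0.71 for H3K4me3, so that the profile of MZspg followed WT less closely on the long arm. Between MZsox19b and WT, rho for H3K4me3 was also lower on the arm, at 0.65 against 0.77 elsewhere. For H3K27ac it was higher, at 0.85 with either replicate, against 0.77. Bins of one list share its library and its depth.

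**Figure D5:**
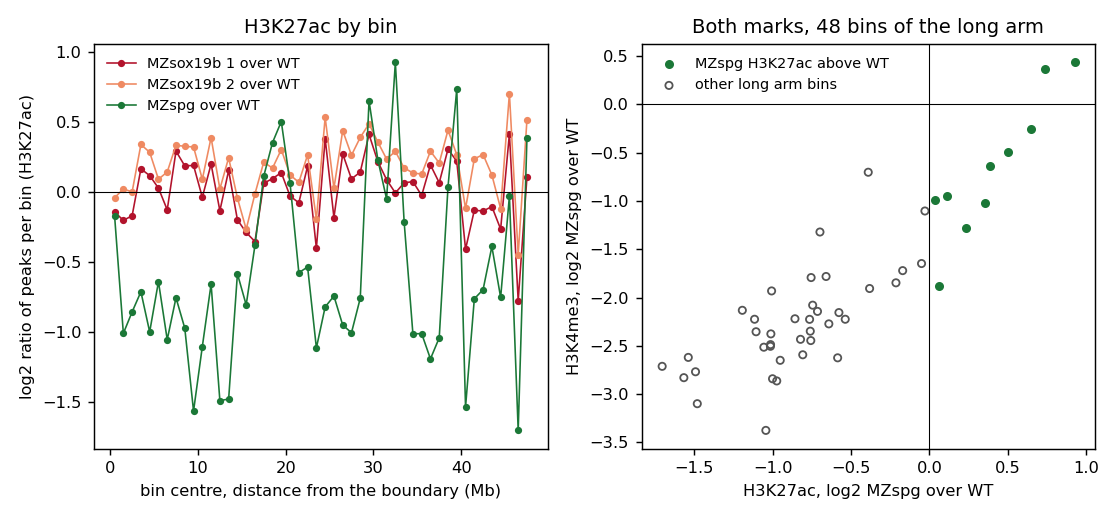
Left, log2 ratio of H3K27ac peaks per 1 Mb bin of the long arm, mutant over WT with 1 added to each count, by distance from the boundary. Right, the log2 ratio of MZspg over WT for H3K4me3 against that for H3K27ac, 1 point per bin, with the 10 bins in which MZspg had more H3K27ac peaks than WT filled. The MZsox19b lines stay between −0.78 and 0.70, the MZspg line runs between −1.70 and 0.93, and the filled points lie to the upper right.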

How the data were processed

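Whole embryos were profiled by ChIP-seq in 14 libraries, of which 7 were ChIP libraries with a peak list each and 7 were inputs. The authors mapped reads to danRer11 with Bowtie2 2.3.2.2, per the labels, and called peaks with MACS2 in each ChIP library against pooled inputs, at a q value threshold of 0.05. The version of MACS2 and the treatment of reads with several alignments are not given in the sources used here. The deposited lists hold the position of each peak, a score, the fold enrichment at the summit and −log10 of its p-value and q-value, all as MACS2 gave them to the authors. The score equals 10 times −log10 q, rounded down, in all but 4 MZspg H3K27ac peaks and was not used further. The names in the MZsox19b H3K4me3 list, unlike those of the others, carry the word filter.

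Peaks on chromosomes 1 to 25 were used. Those on alternate loci and unplaced scaffolds, 11.3% to 17.5% of a list, were left out. Chromosome lengths were the highest peak end in any list. Peaks were ranked by fold enrichment within a list and counted as shared at an overlap of at least 1 bp. Missing means no overlapping peak, a call that depends on the threshold and depth of the list searched. MZsox19b losses and gains needed both replicates. A bin holds the peaks that start in it, and shares and ratios were taken in bins with at least 20 peaks. Peaks named singly were the 3 highest of each list, the 3 highest WT H3K27ac peaks missing from each mutant, the 3 highest of each mutant missing from WT, the 2 highest H3K4me3 peaks by the same rules, and the 3 widest of each mark in WT. Bins named were the 3 with the most and the 3 with the fewest WT peaks of each mark. The 10 bins with more H3K27ac peaks in MZspg, and the bins at the boundary, were named after their counts were seen. The members, bins and lists were chosen with earlier results of these data known.

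Overlaps and Wilson intervals were computed in Python 3.11.15 with numpy 2.4.6 and pandas 2.3.3, correlations with scipy 1.17.1 and plots with matplotlib 3.10.9. The overlap code was tested on simulated intervals with known overlaps, and on the WT and MZspg H3K27ac lists against bedtools 2.31.1. No test was run, since a single group had replicates, and only 2. Alternatives were a −log10 q of at least 5, merging of peaks within 1000 bp, an arm start at 35 Mb, ranking by q, the 5000 highest peaks, an overlap of 50%, lists of equal length, the other chromosomes weighted by rank, and leaving out each MZsox19b replicate. Gene names, sequences and annotation were planned but not used here, because no genome of this build was at hand.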

Additional observations from a re-analysis of the deposited data

Results flagged for a closer look

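The share of WT H3K27ac peaks found again differed between the long arm and the other chromosomes in opposite directions in the mutants. It was 22.6 and 21.1 percentage points higher on the long arm in the MZsox19b replicates and −6.30 points, that is lower, in MZspg. This difference between the mutants was not tested.

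Peaks were also present on alternate loci of chromosome 4, which no comparison used. Over 19 such loci there were 420 and 500 H3K27ac peaks in the MZsox19b replicates, 296 in MZspg and 272 in WT, and 162 H3K4me3 peaks in MZsox19b, 91 in MZspg and 169 in WT. Every one of these counts was above the limit of 3 that a count of 0 allows, which does not compare chromosome 4 with other chromosomes. As a share of all peaks of a list on alternate loci and unplaced scaffolds, they ranged from 1.63% in WT H3K4me3 to 2.05% in MZspg H3K4me3. Whether these shares differ from those of other chromosomes was not tested.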

How the results depend on the processing

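No paired analysis was possible because the groups compared share fewer than 2 replicate numbers and no test was run. The restriction to peaks whose summit sequence occurs once in the assembly was not run, for want of a genome. The long arm was denser than every other chromosome in 7 of 7 lists under each alternative, at 1.71 to 4.12 times the other chromosomes together. Without either MZsox19b replicate in turn, this count was 6 to 6 of the 6 lists left, and wider H3K27ac or H3K4me3 peaks on the long arm were found in 2 to 2 lists. Strong peaks exceeded the share of the length in 6 to 6, and a higher share of H3K27ac with H3K4me3 was found in 2 to 2. Width depended on the threshold. At a −log10 q of at least 5, 0 lists had wider peaks on the long arm, against 3 as deposited, with ratios of 0.794 in MZsox19b H3K27ac and 0.730 in WT, and merging peaks gave 1.06 in MZspg. Among the 5000 highest peaks, MZspg H3K4me3 was at 0.834 times the share of the length.

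For the marks, the MZspg difference in H3K4me3 overlapped by H3K27ac turned to 0.651 percentage points with an overlap of 50% and 5.50 with rank weighting. With lists of equal length the WT difference in H3K27ac overlapped by H3K4me3 turned to −1.34, and 1 H3K27ac list had a higher share on the long arm, against 2 as deposited. The MZspg lists set the equal length, so that alternative leaves their mark overlaps as they are. For WT H3K27ac found in MZspg the difference was −7.23 points with an overlap of 50%, −8.22 with rank weighting and −12.3 without the 10 bins rich in MZspg peaks, an alternative chosen after seeing the data, with the bins picked by their MZspg counts. In MZsox19b it was 24.4 with an overlap of 50%, 23.4 with lists of equal length and 19.96 with rank weighting, and 21.1 to 22.6 with a replicate left out. For WT H3K4me3 found in MZspg it was −25.8 with lists of equal length, −7.69 with rank weighting and −22.3 without the 10 bins. In MZsox19b it was −22.3 with an overlap of 50%, −23.0 with lists of equal length and −10.5 with rank weighting. The causes were not tested. The lists do not give the reads behind a peak, and an absent peak may lie below the threshold.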
